A study of Homo sapiens with 6 samples.

Results

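Genes named ZNF and a number encode zinc finger proteins, and those that human gene annotation places on an autosome other than chromosome 19 were examined after knockdown of SETD5 in Huh7 cells. Of the 14200 genes in the deposited table, 473 carried such a symbol. The 218 on the other autosomes with a mean of at least 1 CPM (a gene's reads scaled for library size) over the 6 libraries were kept, and 11 more lay below that level. The rule used only symbol, position and mean level. Because that mean covers both groups, a gene can pass the limit through 1 group alone, as ZNF804B and ZNF334 did through their knockdown libraries. Just above the limit were ZNF334 and ZNF485, at a mean of 1.11 CPM each, and just below it ZNF774 at 0.996 CPM and ZNF487 at 0.988 CPM. Of the 218 genes, 208 were protein-coding, 7 were pseudogenes and 3 were antisense RNAs (ZNF436-AS1, ZNF213-AS1 and ZNF337-AS1).

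Most ZNF proteins read DNA with a row of C2H2 fingers, short loops in which a pair of cysteines and a pair of histidines hold a zinc ion. Many also carry a KRAB domain near the amino end, which recruits the corepressor TRIM28 and, through it, the methyltransferase SETDB1 and HP1 proteins, and a large share of such proteins bind transposable elements. Others lack KRAB and act in chromatin complexes, as activators, or on RNA. SETD5 is a SET-domain chromatin protein described together with the HDAC3-NCoR corepressor complex.

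Huh7 is an established line from a human hepatocellular carcinoma. Poly(A)-selected RNA was sequenced with a stranded kit from 3 control libraries and 3 libraries of cells transfected with siRNA against SETD5 (SETD5 knockdown). The labels do not say what the control cells received, when RNA was taken, or whether replicates were grown apart, so that p-values reflect library-to-library spread alone, possibly a technical one. Both groups are the same cell line.

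Over the genes of the deposited table, 14038447 to 17095417 reads per library were recovered from the values, which need not be the full sequencing depth. Thus 3 reads, the floor for a gene at 0, were worth 0.176 to 0.214 CPM, counting error only. SETD5 was at 212, 210 and 202 CPM in the controls and 136, 140 and 138 CPM after knockdown, 0.664 of the control mean (log2 change -0.59, SE 0.032, adjusted p = 1.15e-17). The exact two-sided permutation test of those 6 values gave p = 0.1, the smallest that 3 against 3 allows. All 10 hepatocyte markers were detected, at a summed level of 43856 to 44797 CPM in the controls and 40996 to 41362 CPM after knockdown, with 2 called higher and 7 lower. Of 14 markers of blood, endothelial, stromal and basal epithelial cells, 8 matched a row of the table and 6 were tested. They summed to 167 to 177 CPM in the controls and 308 to 320 CPM after knockdown, mostly from COL1A2 (135 ± 2.4 against 282 ± 6.1 CPM). Of the 6, COL1A2 and COL3A1 were called higher, and PDGFRB (25.2 ± 2.4 against 18.2 ± 0.72 CPM) and CD14 (3.62 ± 0.17 against 1.76 ± 0.26 CPM) lower. PECAM1 and CDH5 stayed below 1 CPM in both group means. The part of these shifts in the ZNF results was not tested. In bulk RNA, fewer cells expressing a gene and less RNA per cell cannot be told apart.

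ZNF transcripts outside chromosome 19 were mostly higher after knockdown. Summed over the 218 genes, they took 4773 to 4830 CPM in the controls and 5277 to 5288 CPM in the knockdown libraries. A gene was called where limma gave an adjusted p under 0.05 over all 12865 tested genes. Of all tested genes, 52.1% were called, 25.7% higher and 26.5% lower. Of the 218 ZNF genes, 79 (36.2%) were called higher, 15 (6.88%) lower and 124 were not called. Thus rises among them exceeded the background share and falls stood below it. Without control replicate 3 the falls numbered 9, the lowest count over the libraries left out in turn, and the rises 77.

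**Figure D1:**
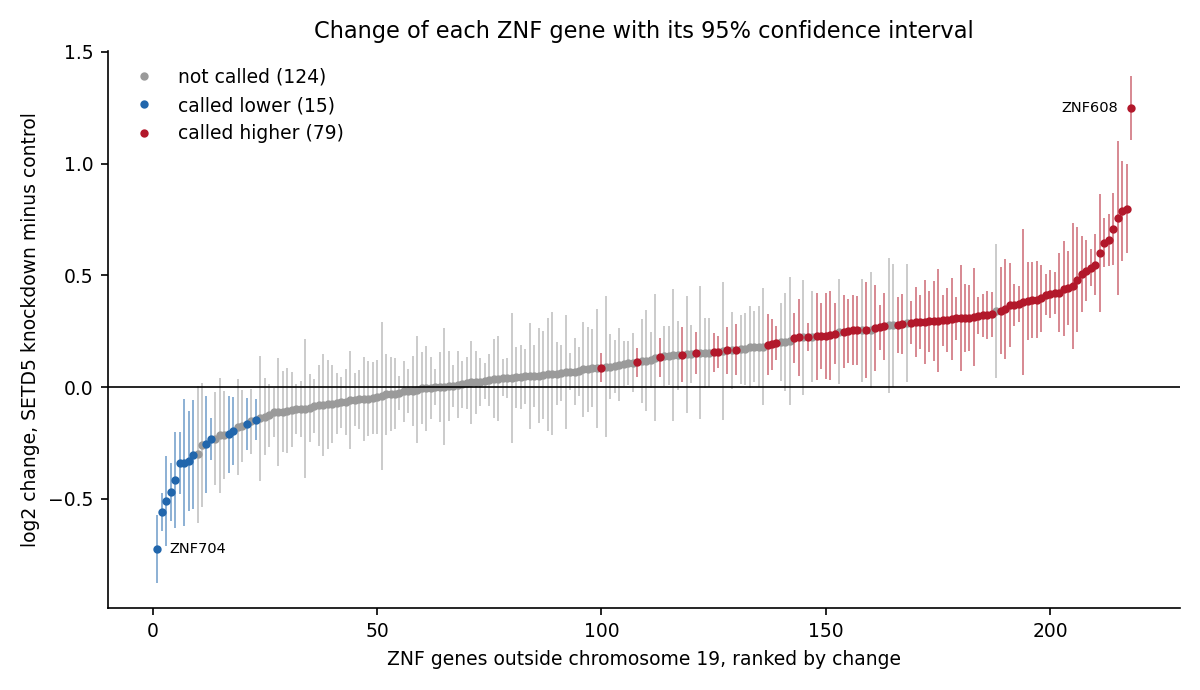
Log2 change (knockdown minus control) of each of the 218 ZNF genes outside chromosome 19, in rank order, with vertical lines for 95% confidence intervals and colours for the call. The values run from -0.72 (ZNF704) to 1.25 (ZNF608), and 155 of the 218 lie above 0.

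The shift was broad and small. The median log2 change was 0.117 for the 218 ZNF genes, with quartiles of -0.03 and 0.28, against -0.001 for all tested genes. All 3 knockdown values lay above all 3 control values for 97 of the ZNF genes and below them for 21, where the shares of all tested genes were 28.6% and 28.8%. On the log2(CPM + 1) scale of the test, 53 rises and 9 falls among the 218 reached 1.2-fold, against 12.6% and 14.7% of all tested genes. On that scale 1 of the 218, ZNF608, was called with a change of at least 2-fold, which 1.33% of all tested genes reached. As a ratio of mean CPM, ZNF804B also passed 2-fold (2.85, from 0.595 to 1.70 CPM). ZNF genes on chromosome 19, the most similar group, had a median log2 change of 0.19 over 220 genes, with 97 called higher and 8 lower (5 without control replicate 3). The difference between the 2 sets of ZNF genes was not tested.

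**Figure D2:**
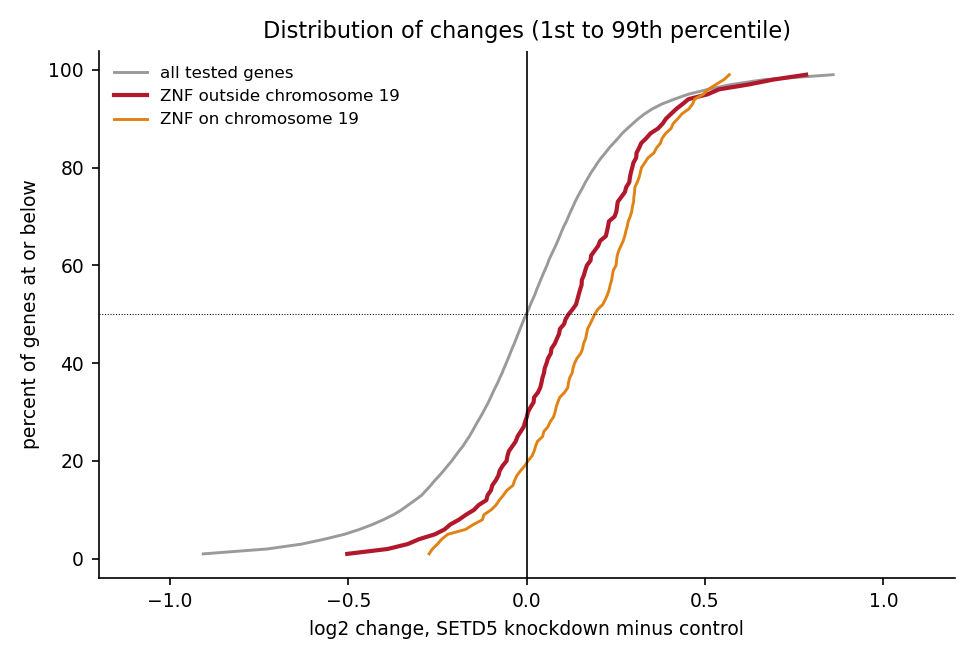
Percentiles (1st to 99th) of the log2 change for ZNF genes outside chromosome 19, ZNF genes on chromosome 19 and all tested genes. The curve of the 218 genes crosses 50% at 0.117, that of the 220 on chromosome 19 at 0.19 and that of all tested genes at -0.001.

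The median level of the ZNF genes was 14.9 CPM, against 29.4 CPM over all tested genes. The share called higher grew with level. It was 6 of 38 genes at 1 to 5 CPM, 33 of 100 at 5 to 20 CPM, 25 of 55 at 20 to 50 CPM and 15 of 25 at 50 CPM or more. All tested genes at the same levels were called higher in 14.7%, 21.6%, 27.1% and 32.7%. Falls numbered 1, 8, 3 and 3 in the same classes, where all tested genes were called lower in 15.6%, 24.1%, 27.2% and 32.7%. Of the 6 rises at 1 to 5 CPM, ZNF804B and ZNF334 had control means of 0.595 and 0.834 CPM and so passed the limit of 1 CPM through their knockdown libraries. The call of ZNF334 ended without control replicate 1 or knockdown replicate 1 or 3. In the lowest class the share called higher, 15.8%, was near the background of that class, while its median log2 change was 0.14.

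**Figure D3:**
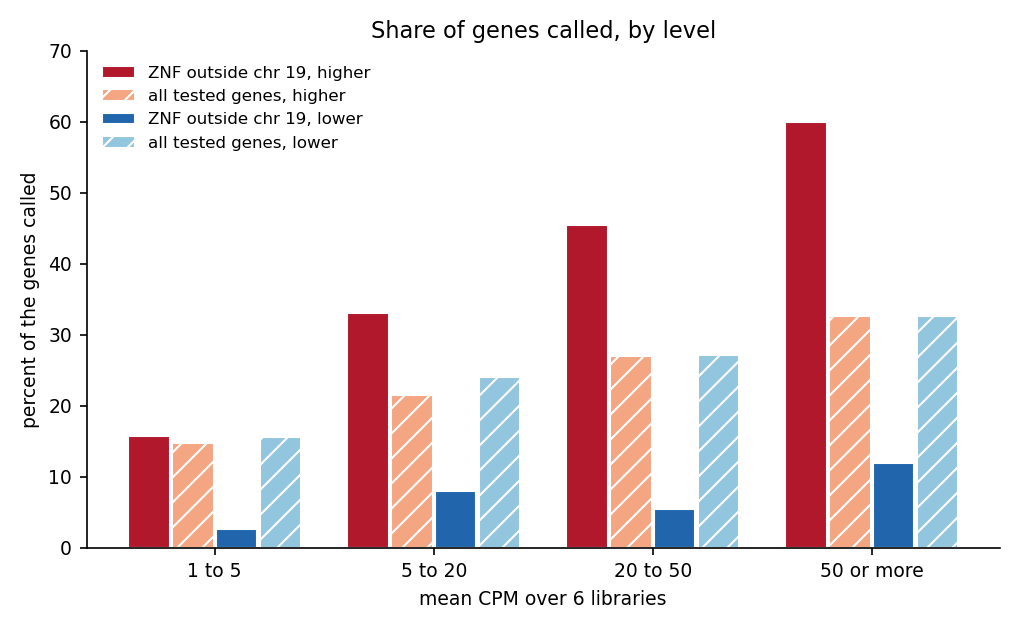
Percent of genes called higher or lower, by mean CPM over the 6 libraries, for ZNF genes outside chromosome 19 (solid) and all tested genes (hatched). From 5 CPM up, the solid red bars (33.0% to 60.0%) stand above the hatched ones (21.6% to 32.7%), and the solid blue bars stay at 12% or less.

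The largest rise on the log2(CPM + 1) scale was that of ZNF608, a paralogue of ZNF609. It was at 11.8, 14.4 and 12.3 CPM in the controls and 31.2, 31.8 and 32.2 CPM after knockdown, 2.47 times the control mean (log2 change 1.25, SE 0.071, adjusted p = 3.93e-17). The groups were far apart, and the knockdown libraries differed by 1 CPM from lowest to highest. ZNF609 itself rose from 43.9 ± 2.0 to 54.5 ± 1.2 CPM (log2 change 0.31, SE 0.047, adjusted p = 1.02e-06). Means are given ± SD over the 3 libraries of a group throughout.

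ZNF273, a KRAB zinc finger gene on chromosome 7, was at 5.09, 6.34 and 6.07 CPM in the controls and 10.5, 11.7 and 10.4 CPM after knockdown (log2 change 0.80, SE 0.098, adjusted p = 1.31e-08). ZNF713, a KRAB gene on the same chromosome known for a CGG repeat expanded in some people with autism, was at 3.63, 4.94 and 5.22 CPM and then 8.06, 8.65 and 9.09 CPM (log2 change 0.79, adjusted p = 1.80e-07). ZNF74, a KRAB gene of the 22q11 region, was at 9.19, 9.82 and 10.0 CPM and then 16.8, 16.6 and 15.9 CPM (log2 change 0.71, adjusted p = 1.98e-09). In each of these the lowest knockdown library stood above the highest control. ZNF84, with 19 fingers behind its KRAB domain, was at 22.1, 23.4 and 21.4 CPM in the controls and 35.6, 35.0 and 36.7 CPM after knockdown (log2 change 0.66, adjusted p = 6.21e-12).

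ZNF618, whose protein binds UHRF2, a reader of 5-hydroxymethylcytosine, was at 27.1, 26.9 and 28.6 CPM in the controls and 42.9, 46.5 and 41.6 CPM after knockdown (log2 change 0.65, adjusted p = 2.23e-12). ZNF195, a KRAB gene, rose from 17.6 ± 1.2 to 26.2 ± 1.1 CPM. The other rises among the 12 largest were those of ZNF286B, ZNF217, ZNF107, ZNF680 and ZNF695, with log2 changes of 0.60, 0.53, 0.52, 0.51 and 0.48. ZNF286B is a near copy of ZNF286A, which rose as well (29.045 ± 0.71 to 39.1 ± 0.56 CPM, log2 change 0.42), and reads could have been divided between them in either direction. ZNF804B, at 0.595 ± 0.31 and then 1.70 ± 0.54 CPM (log2 change 0.76), was left out of these 12 by its level.

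**Figure D4:**
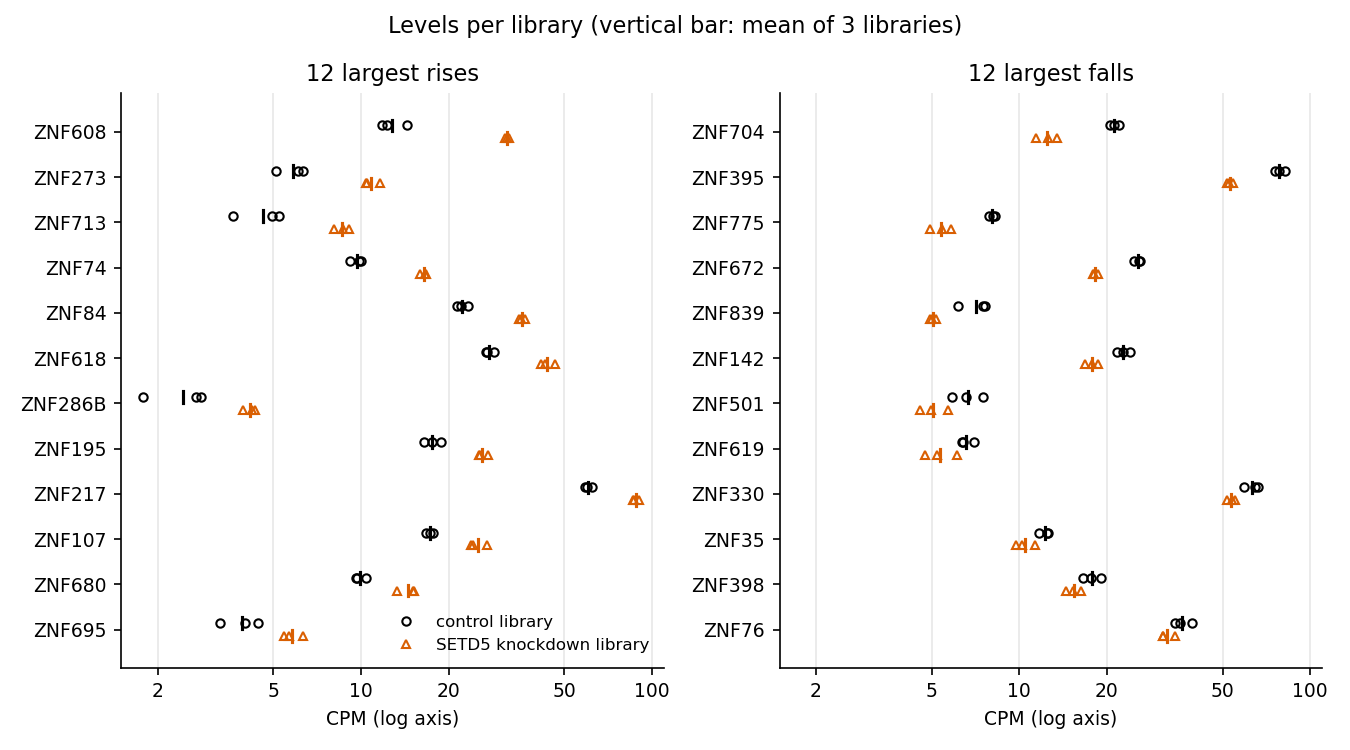
CPM of each library on a log axis for the 12 largest rises and the 12 largest falls among called genes whose groups did not overlap and whose higher mean reached 2 CPM. Circles are control and triangles SETD5 knockdown libraries, vertical bars are means of 3; the groups stand farthest apart for ZNF608 (12.8 against 31.7 CPM) and, among the falls, for ZNF704 (21.2 against 12.5 CPM).

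Falls were fewer and included a pair of relatives. ZNF704 and ZNF395 belong to the small family of SLC2A4RG, the GLUT4 enhancer factor, and both lie on chromosome 8. ZNF704 was at 22.0, 21.1 and 20.4 CPM in the controls and 13.4, 11.4 and 12.5 CPM after knockdown (log2 change -0.72, SE 0.075, adjusted p = 3.02e-10). ZNF395 was at 77.9, 75.5 and 81.7 CPM and then 52.5, 51.9 and 54.1 CPM (log2 change -0.56, SE 0.042, adjusted p = 1.22e-13). Neither pair of groups overlapped, and the calls of both held under all 14 alternative settings.

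ZNF775 was at 8.14, 8.22 and 7.86 CPM in the controls and 4.94, 5.40 and 5.80 CPM after knockdown (log2 change -0.51, adjusted p = 5.34e-05). ZNF672 was at 24.8, 25.8 and 26.0 CPM and then 18.6, 17.9 and 18.0 CPM (log2 change -0.47, adjusted p = 1.08e-07). ZNF839 fell from 7.08 ± 0.83 to 5.04 ± 0.11 CPM (log2 change -0.42, adjusted p = 0.00119). ZNF142, whose 31 matched fingers were the most of any gene in the set, fell from 22.8 ± 1.2 to 17.8 ± 0.89 CPM (log2 change -0.34, adjusted p = 6.61e-05). ZNF330, a nucleolar protein, fell from 63.2 ± 3.5 to 53.6 ± 1.7 CPM (log2 change -0.23, adjusted p = 5.08e-05). These 5 calls also held under all 14 settings.

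The smaller falls were less secure. ZNF501 fell by 0.33 on the log2 scale, a call lost without control replicate 3 or knockdown replicate 3. ZNF619, ZNF35, ZNF398 and ZNF76 had log2 changes of -0.26, -0.21, -0.20 and -0.17. Their calls were kept under 6, 10, 10 and 10 of the 14 settings, and all 4 were lost without control replicate 3. Control replicate 2 also decided the calls of ZNF619, ZNF35 and ZNF398, and control replicate 1 that of ZNF619. So did knockdown replicate 1 for ZNF35, ZNF398 and ZNF76, knockdown replicate 2 for ZNF619 and ZNF35, and knockdown replicate 3 for ZNF619, ZNF398 and ZNF76. ZNF213 and ZNF385B were called lower (log2 changes -0.30 and -0.34) although their groups overlapped. Their calls also ended without control replicate 1 or knockdown replicate 2, and for ZNF213 without control replicate 3 or knockdown replicate 3, for ZNF385B without knockdown replicate 1.

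Of the 8 genes that took the most reads, a quantity not corrected for transcript length, 7 rose, with log2 changes of 0.09 (ZNF638) to 0.37 (ZNF281). At 50 CPM or more, 32.7% of all tested genes and 15 of 25 ZNF genes of the set were called higher. The ZNF638 call was lost when the variance trend was left out. ZNF664 was at 204, 216 and 203 CPM in the controls and 246, 244 and 238 CPM after knockdown (log2 change 0.22, SE 0.031, adjusted p = 1.22e-07). A readthrough symbol of the same locus, ZNF664-FAM101A, was in the table, was not placed by the annotation, and may share reads with it. ZNF207, the kinetochore protein BuGZ that stabilises BUB3, was at 165, 172 and 164 CPM and then 180, 183 and 178 CPM (log2 change 0.11, adjusted p = 0.00378), a call lost when the variance trend was left out. ZNF24, a SCAN-domain protein, rose from 111 ± 0.70 to 124 ± 3.1 CPM. ZNF445, a KRAB protein that keeps imprinted methylation marks, rose from 88.4 ± 2.8 to 102 ± 1.7 CPM. The groups overlapped for ZNF518A, at 99.6 ± 0.78 and 97.7 ± 3.9 CPM (log2 change -0.03, 95% confidence interval -0.10 to 0.05).

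Members of corepressor and methyltransferase complexes rose in 6 of 10 cases, and none was called lower. Beside this and the lists that follow stand 36.2% called higher and 6.88% lower of the 218 ZNF genes. Of all tested genes, 25.7% and 26.5% were. The lists are short and were chosen with earlier results of these data known. ZNF217, an oncoprotein of the CoREST and CtBP complexes, was at 60.0, 62.4 and 58.8 CPM in the controls and 90.6, 86.8 and 86.2 CPM after knockdown (log2 change 0.53, SE 0.040, adjusted p = 1.11e-13). ZNF644, a partner of the H3K9 methyltransferases G9a and GLP, was at 43.1, 46.2 and 46.9 CPM and then 62.4, 62.8 and 58.1 CPM (log2 change 0.42, adjusted p = 1.55e-09). In both genes the knockdown libraries lay well above the controls. ZNF281, tied to the NuRD complex, rose from 80.3 ± 4.4 to 104 ± 1.3 CPM, and ZNF516, a partner of CtBP and LSD1, from 33.3 ± 2.1 to 41.8 ± 0.22 CPM. ZNF703 and ZNF503, related corepressors, had log2 changes of 0.25 and 0.26; the ZNF503 call ended without control replicate 1 or knockdown replicate 3. ZNF335, a subunit of an H3K4 methyltransferase complex, was not called (36.3 ± 2.3 against 33.8 ± 0.99 CPM), but was called lower without control replicate 2.

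ZNF687, ZNF592 and ZNF532 form the Z3 group that works with ZMYND8. ZNF532 was at 14.3, 13.4 and 13.4 CPM in the controls and 18.6, 17.2 and 19.3 CPM after knockdown (log2 change 0.40, SE 0.074, adjusted p = 2.51e-05). The groups overlapped for ZNF687 (26.4 ± 1.1 against 27.3 ± 1.6 CPM) and ZNF592 (69.98 ± 1.0 against 71.3 ± 0.65 CPM), with 95% confidence intervals of the log2 change of -0.08 to 0.17 and -0.05 to 0.11.

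Of 9 sequence-specific activators, 2 (22.2%) rose and 3 (33.3%) fell. ZNF704 and ZNF395, described above, gave the 2 largest changes. ZNF143 and ZNF76 are paralogues that bind the same long promoter element. ZNF143 was at 30.0, 34.4 and 31.2 CPM in the controls and 34.9, 36.0 and 36.6 CPM after knockdown (log2 change 0.17, adjusted p = 0.0120), and its call ended without control replicate 1. ZNF76 was at 35.7, 34.3 and 39.1 CPM and then 31.3, 34.2 and 31.2 CPM (log2 change -0.17, adjusted p = 0.0137). The sign was thus opposite in the 2 paralogues, and for ZNF76 the highest knockdown library lay just below the lowest control. ZNF148, which binds GC-rich promoters, rose from 43.3 ± 2.2 to 54.3 ± 1.6 CPM (log2 change 0.32, adjusted p = 6.13e-07). ZNF384 and ZNF639 were not called, at log2 changes of 0.07 and -0.06.

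Proteins that act on RNA or ribosomes moved in both directions, 5 higher and 3 lower of 12. ZNF106, linked to splicing in muscle and nerve, was at 68.7, 71.0 and 73.3 CPM in the controls and 89.5, 93.3 and 83.9 CPM after knockdown (log2 change 0.32, adjusted p = 4.33e-08). ZNF326, which couples elongation to splicing in the DBIRD complex, rose from 65.1 ± 3.4 to 72.5 ± 2.4 CPM. ZNF346, a binder of double-stranded RNA, had a log2 change of 0.27, and ZNF385A one of 0.35; both calls ended without control replicate 2, and the latter also without knockdown replicate 1. ZNF638, which silences unintegrated retroviral DNA together with the HUSH complex, had a log2 change of 0.09 (adjusted p = 0.0253), a call lost without control replicate 1 or knockdown replicate 2. ZNF598, the ligase that marks collided ribosomes, fell from 62.9 ± 1.9 to 56.9 ± 3.6 CPM (log2 change -0.15, adjusted p = 0.00778), and its call ended without knockdown replicate 2.

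Of 5 genes of mitosis, SUMO and genome maintenance, 3 (60.0%) were called and all 3 rose. Beside ZNF207, ZNF451, a SUMO ligase, rose from 47.5 ± 1.4 to 52.9 ± 1.5 CPM and ZNF830 from 8.85 ± 0.70 to 11.1 ± 0.21 CPM. ZNF668 missed the threshold at an adjusted p of 0.0503 (log2 change 0.20) and passed it under 5 settings. ZNF280B was not called either, with a 95% confidence interval of the log2 change of -0.14 to 0.13.

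Among 7 genes with ties to lipid, adipose or metabolic control, 4 (57.1%) rose and 1 (14.3%), ZNF395, fell. ZNF202, a SCAN and KRAB repressor of lipoprotein and lipid transport genes, was at 18.0, 18.9 and 18.6 CPM in the controls and 21.8, 22.4 and 24.2 CPM after knockdown (log2 change 0.28, SE 0.066, adjusted p = 0.000539). ZNF652 rose from 16.04 ± 1.1 to 19.9 ± 0.57 CPM (log2 change 0.30, adjusted p = 0.000588). ZNF746, the PARIS repressor of PGC-1alpha, was not called (log2 change 0.04, 95% confidence interval -0.10 to 0.19).

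SCAN domains let zinc finger proteins pair with each other, and 15 SCAN genes were in the set. Of these, 6 (40.0%) rose and 1 (6.67%) fell, near the 36.2% and 6.88% of all 218 ZNF genes. ZNF202, ZNF445, ZNF24 and ZNF197 gave rises of 0.28, 0.20, 0.16 and 0.19 on the log2 scale; that of ZNF197 was lost without knockdown replicate 3. ZNF174 and ZNF500 each had a log2 change of 0.23. Leaving out control replicate 2, control replicate 3 or knockdown replicate 3 ended both of these calls; for ZNF174 knockdown replicate 2 did so too, and for ZNF500 control replicate 1 and knockdown replicate 1. The call of ZNF500 was kept under only 5 of the 14 settings.

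A KRAB domain was found by a sequence profile in 103 of the 209 genes with a translated protein. Of these 103, 38 rose and 3 fell, with a median log2 change of 0.15. Of the 106 without a match, 40 rose and 12 fell, with a median of 0.09. The share called higher was 36.9% and 37.7%, and the share called lower 2.91% and 11.3%; the difference was not tested. Of all tested genes, 25.7% were called higher and 26.5% lower. On chromosome 19, 185 of 213 proteins had the match. Of those 185 genes, 88 (47.6%) were called higher and 6 lower, with a median log2 change of 0.22. Of the 28 without it, 8 (28.6%) were called higher and 2 lower, with a median of 0.04. This difference was not tested either.

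The fingers numbered 0 to 31, with a median of 9, and 6 proteins had none that matched the pattern. Genes with 0 to 3 fingers were called higher in 19 of 34 cases and lower in 5, those with 4 to 9 in 24 and 5 of 86, those with 10 to 15 in 26 and 4 of 65, and those with 16 or more in 9 and 1 of 24. The shares called higher were 55.9%, 27.9%, 40.0% and 37.5% in that order, against 25.7% of all tested genes, to which the class with 4 to 9 fingers was near. Of all tested genes, 26.5% were called lower. The class with 0 to 3 fingers also had the highest median level, 19.995 CPM against 13.1 to 15.8 CPM in the others. Over the 209 genes, finger number and log2 change had a Pearson correlation of 0.03 and a Spearman correlation of 0.07, as a description across genes that share the same libraries.

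The corepressors on which KRAB proteins depend were read beside them. Of 21 such genes, 12 (57.1%) were called higher and 3 (14.3%) lower. Their median level was 90.2 CPM, and of all tested genes at 50 CPM or more, 32.7% were called in each direction. CBX5, the gene of HP1 alpha, was at 251, 248 and 246 CPM in the controls and 332, 351 and 322 CPM after knockdown (log2 change 0.43, adjusted p = 2.17e-14). SUV39H1, an H3K9 methyltransferase, was at 64.4, 64.1 and 66.7 CPM and then 46.5, 48.1 and 43.8 CPM (log2 change -0.49, adjusted p = 2.13e-11). The methyltransferases DNMT3A and DNMT3B moved in opposite directions, from 56.0 ± 1.2 to 71.4 ± 3.1 CPM and from 71.5 ± 1.0 to 56.1 ± 2.5 CPM. TRIM28 itself was at 572 ± 12 and 607 ± 5.7 CPM (log2 change 0.09, adjusted p = 0.00546), a call lost when the variance trend was left out.

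Neighbouring ZNF genes often arose by tandem duplication, so runs of neighbours were compared. There were 9 runs with 63 genes, of which 23 rose and 4 fell; outside runs 56 of 155 rose and 11 fell. The shares called higher were 36.5% and 36.1%, and the counts varied from run to run. Of all tested genes, 25.7% were called higher and 26.5% lower. In 1 run on chromosome 7, all 7 genes rose. In another on the same chromosome, none of 10 rose and 1, ZNF398, fell.

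**Figure D5:**
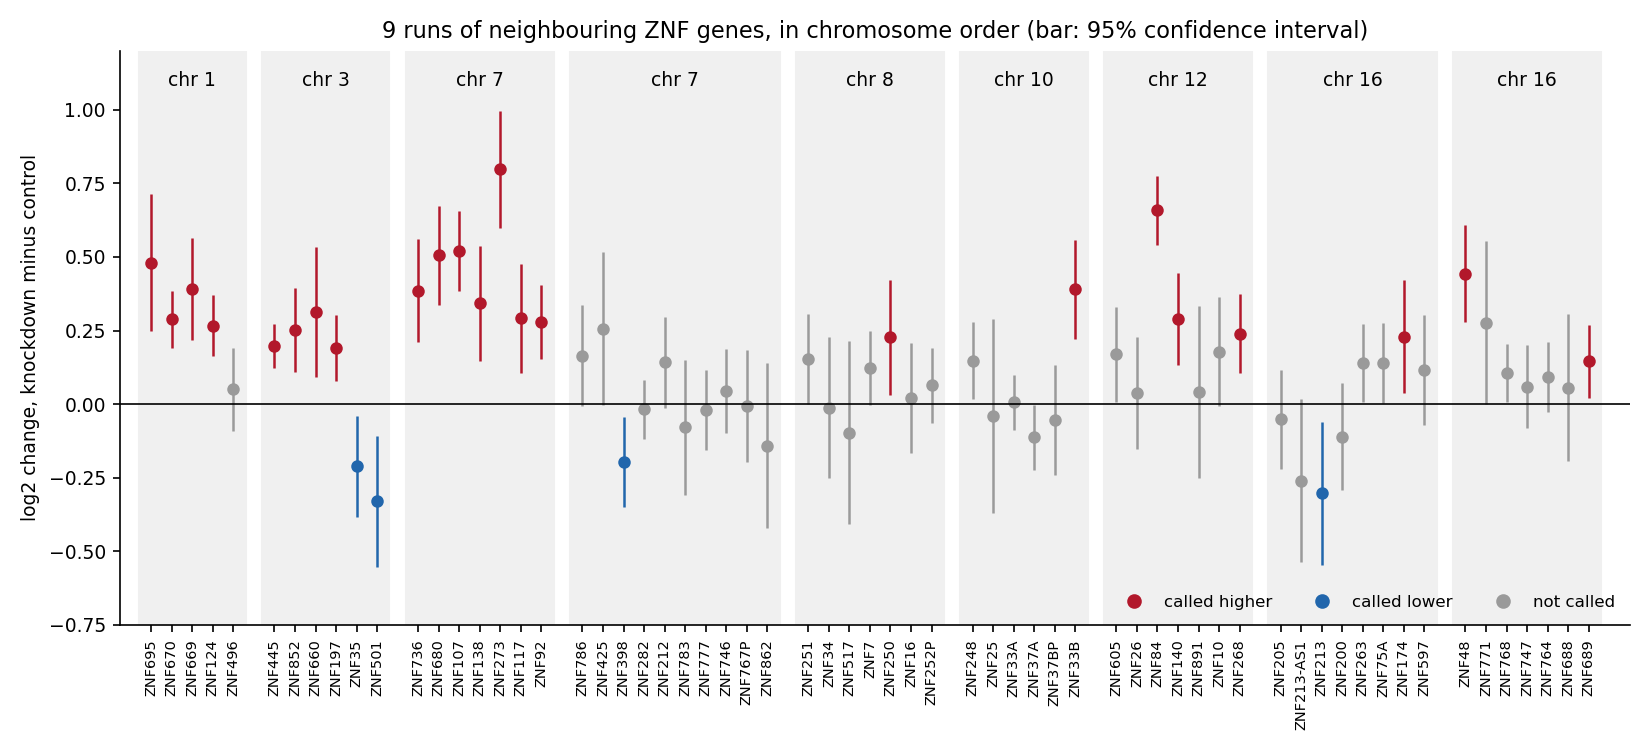
Log2 change of the 63 ZNF genes in 9 runs of neighbours, in chromosome order, with 95% confidence intervals and colours for the call. All 7 genes of the first chromosome 7 run are red (0.28 to 0.80), and none of the 10 genes of the second is.

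The run in which all rose holds ZNF736, ZNF680, ZNF107, ZNF138, ZNF273, ZNF117 and ZNF92, with a median log2 change of 0.39. It was singled out after its values were seen. ZNF107 was at 17.7, 16.8 and 17.2 CPM in the controls and 23.9, 24.4 and 27.2 CPM after knockdown (log2 change 0.52, SE 0.067, adjusted p = 3.92e-08). ZNF680 was at 9.72, 10.4 and 9.65 CPM and then 15.2, 15.1 and 13.3 CPM (log2 change 0.51, adjusted p = 3.43e-06). ZNF92 was at 22.95, 23.2 and 21.1 CPM and then 27.9, 26.8 and 27.4 CPM (log2 change 0.28, adjusted p = 0.000241). In all 7 genes every knockdown library stood above every control. The narrowest gap was that of ZNF117, from 10.7 CPM in the highest control to 10.99 CPM in the lowest knockdown library, and its call ended without knockdown replicate 1. These genes are close paralogues, ZNF117 overlaps ERV3-1, and reads could have been divided among such copies.

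The promoters of these neighbours are shown because the genes moved together, and 4 of them are near copies of each other. Each run covers 250 bases before to 50 bases after the RefSeq start in GRCh38.p14, 5′ to 3′ on the gene's strand. Capitals mark the box spelled CCAAT, the ETS-family core spelled CCGGAAG and the GC box spelled GGGCGG, each searched on both strands. On the opposite strand the first reads ATTGG here, the ETS-family core reads CTTCCGG and the GC box reads CCGCCC. Words may overlap. They lie at chr7:64563022-64563321 (minus strand), chr7:64665883-64666182, chr7:64794178-64794477, chr7:65373605-65373904, chr7:64313711-64314010 and chr7:64877353-64877652 (plus strand).
ZNF680: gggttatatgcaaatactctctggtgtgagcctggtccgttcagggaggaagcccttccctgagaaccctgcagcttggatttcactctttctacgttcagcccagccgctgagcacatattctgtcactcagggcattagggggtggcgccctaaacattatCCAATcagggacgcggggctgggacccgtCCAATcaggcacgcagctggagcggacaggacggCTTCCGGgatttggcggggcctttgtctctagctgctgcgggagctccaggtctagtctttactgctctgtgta
ZNF107: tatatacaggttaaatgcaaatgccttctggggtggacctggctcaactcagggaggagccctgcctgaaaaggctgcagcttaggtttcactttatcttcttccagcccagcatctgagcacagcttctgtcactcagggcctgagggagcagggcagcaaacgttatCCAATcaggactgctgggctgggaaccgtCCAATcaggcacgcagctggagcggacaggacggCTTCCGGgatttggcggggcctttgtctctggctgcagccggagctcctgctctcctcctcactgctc
ZNF138: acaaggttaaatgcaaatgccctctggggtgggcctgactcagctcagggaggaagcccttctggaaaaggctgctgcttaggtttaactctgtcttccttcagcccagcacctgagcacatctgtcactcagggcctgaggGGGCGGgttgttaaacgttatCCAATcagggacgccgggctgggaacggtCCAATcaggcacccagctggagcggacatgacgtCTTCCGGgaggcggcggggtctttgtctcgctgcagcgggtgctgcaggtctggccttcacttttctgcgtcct
ZNF92: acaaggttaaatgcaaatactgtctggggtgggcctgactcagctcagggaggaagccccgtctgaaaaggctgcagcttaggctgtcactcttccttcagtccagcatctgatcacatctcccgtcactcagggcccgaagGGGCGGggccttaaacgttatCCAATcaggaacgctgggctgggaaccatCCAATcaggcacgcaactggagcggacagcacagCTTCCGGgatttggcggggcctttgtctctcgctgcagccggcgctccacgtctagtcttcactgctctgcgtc
ZNF736: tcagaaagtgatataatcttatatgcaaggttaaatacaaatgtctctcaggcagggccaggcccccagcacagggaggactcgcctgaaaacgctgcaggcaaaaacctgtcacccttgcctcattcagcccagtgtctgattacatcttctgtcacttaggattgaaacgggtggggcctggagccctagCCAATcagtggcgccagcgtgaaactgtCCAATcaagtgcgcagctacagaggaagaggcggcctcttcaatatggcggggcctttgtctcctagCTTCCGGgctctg
ZNF273: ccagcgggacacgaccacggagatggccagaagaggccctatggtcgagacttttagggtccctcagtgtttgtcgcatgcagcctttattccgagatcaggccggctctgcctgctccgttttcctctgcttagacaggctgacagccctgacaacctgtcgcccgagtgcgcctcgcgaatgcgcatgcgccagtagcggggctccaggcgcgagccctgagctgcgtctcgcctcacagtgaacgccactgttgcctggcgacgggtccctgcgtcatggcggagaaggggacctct

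The promoters of ZNF680, ZNF107, ZNF138 and ZNF92 were 79.0% to 83.4% identical to each other in pairwise alignment. All 4 held a pair of CCAAT boxes 29 bases apart and an ETS word, at -87, -58 and -24 from the start in ZNF680, ZNF138 and ZNF92, and at -81, -52 and -18 in ZNF107. The promoter of ZNF736 was 57.0% to 61.6% identical to those 4 and held 2 CCAAT boxes 28 bases apart, with the ETS word at 38 after the start. In the ZNF273 promoter, 49.9% to 52.1% identical to the same 4, none of these words was found, although its rise was the largest of the run. The one of ZNF117 held a single CCAAT box.

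Promoters were matched for 177 of the 218 ZNF genes. The ETS word was in 39.5% of them, against 19.5% of the promoters of tested genes and 10.7% of all promoters in the reference table. CCAAT was in 45.2%, 36.8% and 35.7%, and GGGCGG in 64.4%, 69.99% and 44.6%. The ETS word did not separate the genes that moved: 41.2% of 68 promoters of called rises held it, 39.8% of 98 of genes not called, and 3 of 11 of called falls. The layout of at least 2 CCAAT boxes with an ETS word, looked for after the run had been seen, occurred in 15 ZNF promoters (8.47%), against 2.35% of those of tested genes. Of the 15, 11 belonged to called rises, 5 of them in the chromosome 7 run from which the layout was taken, and the other 4 to genes not called. Beside this, 68 of all 177 matched promoters belonged to called rises, and 25.7% of all tested genes were called higher. How many tested genes with the layout were called higher was not counted, so a link between layout and rise was not tested. The rises outside the run were ZNF195, ZNF720, ZNF660, ZNF670, ZNF519 and ZNF143. Identical letters are not shown to be binding sites, and paralogues share sequence by descent.

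The second run on chromosome 7 holds ZNF786, ZNF425, ZNF398, ZNF282, ZNF212, ZNF783, ZNF777, ZNF746, ZNF767P and ZNF862, and its median log2 change was -0.01. ZNF282 was at 41.3, 43.5 and 45.0 CPM in the controls and 42.005, 42.7 and 43.5 CPM after knockdown, with a 95% confidence interval of the log2 change of -0.12 to 0.08. ZNF398 was at 16.5, 19.2 and 17.6 CPM and then 15.3, 16.3 and 14.5 CPM, so that its groups came close without overlap. KRAB was found in all 9 of its proteins, the feature it shares with 6 of 7 genes of the run that rose.

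In the run on chromosome 1, 4 of 5 genes rose. ZNF695 was at 3.98, 3.27 and 4.43 CPM in the controls and 5.44, 5.65 and 6.34 CPM after knockdown (log2 change 0.48, SE 0.115, adjusted p = 0.000628). ZNF669 rose from 11.8 ± 1.4 to 15.7 ± 1.3 CPM, ZNF670 from 50.7 ± 2.0 to 62.1 ± 3.9 CPM and ZNF124 from 38.1 ± 1.8 to 46.1 ± 1.6 CPM. ZNF496 was not called (log2 change 0.05).

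All 6 genes of the chromosome 3 run were called, 4 higher and 2 lower, but the call of ZNF445 alone held under every setting. ZNF445, ZNF852, ZNF660 and ZNF197 rose, and ZNF35 and ZNF501, next to them, fell. ZNF660 had a log2 change of 0.31 although its groups overlapped, and its call ended without control replicate 2 or knockdown replicate 1 or 2, and that of ZNF852 without the variance trend. In the chromosome 12 run, ZNF84, ZNF140 and ZNF268 rose by 0.66, 0.29 and 0.24 on the log2 scale, and the other 4 of 7 genes had positive changes that were not called.

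The chromosome 10 run pairs near copies. ZNF33B was at 10.2, 13.0 and 11.3 CPM in the controls and 15.3, 15.5 and 15.1 CPM after knockdown (log2 change 0.39, SE 0.083, adjusted p = 0.000165). Its copy ZNF33A was at 53.2 ± 3.2 and 53.3 ± 0.95 CPM (log2 change 0.01). How reads common to both were counted is not given in the sources used here, so the split between them is uncertain. Of the 2 runs on chromosome 16, the first had 1 rise (ZNF174) and 1 fall (ZNF213) among 8 genes, and the second had rises of ZNF48 (log2 change 0.44, adjusted p = 1.97e-05) and ZNF689 (0.15) among 7. The call of ZNF689 ended without control replicate 2 or 3, or knockdown replicate 1 or 3.

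By chromosome, rises were called for 7 of 8 ZNF genes on chromosome 18 and 6 of 10 on chromosome 17, where 36.2% of all 218 and 25.7% of all tested genes were called higher. On chromosomes 12 and 10 they were called for 6 of 12 and 2 of 14. They were called for 7 of 29 on chromosome 16, with 2 falls, and for 11 of 29 on chromosome 7, with 2 falls. On chromosome 4, none of 7 rose and ZNF330 fell. No ZNF gene of the set lay on chromosome 13 or 21. Each of the others held 3 to 29 of the genes, not all are listed here, and differences between chromosomes were not tested.

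The 3 antisense RNAs were all at a lower mean after knockdown, and none was called. ZNF436-AS1 was at 2.22, 1.95 and 2.22 CPM in the controls and 1.13, 1.35 and 2.27 CPM after knockdown (log2 change -0.30, adjusted p = 0.094), while ZNF436 had a log2 change of 0.18 that was not called. ZNF213-AS1 had a log2 change of -0.26 beside -0.30 of ZNF213, and ZNF337-AS1 one of -0.22 beside -0.21 of ZNF337. Whether the counting used strand is not given in the sources used here, so reads of a gene and its antisense partner may be mixed. Of the 7 pseudogenes, ZNF286B and ZNF271P were called, both higher; the call of ZNF271P ended without control replicate 3 or knockdown replicate 2.

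The word GCACCT in 3′ UTRs was looked up because genes that hold it were called lower more often over the whole table: 34.5% of the 3135 tested genes with the word, and 24.4% of the 8357 without. A 3′ UTR was found for 204 ZNF genes, and 61 (29.9%) held the word, against 27.3% of all tested genes. With the word, 20 rose and 7 fell, with a median log2 change of 0.06. Without it, 55 of 143 rose and 8 fell, with a median of 0.15. Over all tested genes, 24.3% with the word and 28.0% without it were called higher, with medians of -0.04 and 0.01. UTRs with the word were also longer, at a median of 2296 against 995 bases in the ZNF genes and 2395 against 707 bases over all tested genes. The part of length in either difference was not tested.

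Sites of 6 of the 7 called falls with the word (all but ZNF704, the largest fall), and of 2 called rises that hold it, are shown to set their surroundings side by side. They come from GENCODE 29 transcripts, 5′ to 3′, with the word in capitals; those of ZNF217 and ZNF84 are the rises.
ZNF672: tggttgggcaaGCACCTatatagtatca
ZNF501: tttgtatggaaGCACCTtttttttctcc
ZNF213: catcagcactaGCACCTcactccatcag
ZNF619: caaaatcctttGCACCTcaagttaggga
ZNF35: acaaaaagtaaGCACCTaaaggcaagga
ZNF385B: tgcacatttttGCACCTcttgtgcattc
ZNF217: atataatgcttGCACCTcaggtaaaaat
ZNF84: tatggtattttGCACCTttaccttaaac

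In ZNF672, the fall with the lowest log2 change among these, the site begins 44 bases into a 3′ UTR of 884 bases. ZNF501 and ZNF619 carry the word 2 times each, with the first at 40 and 27 bases. In the other falls shown, ZNF35, ZNF213 and ZNF385B, the first site begins at 187, 798 and 882 bases. ZNF217 and ZNF84 carry the word 2 times too, with the first at 390 and 2053 bases, and rose. Of the called rises not shown, ZNF407 and ZNF202 have it first at 9 and 246 bases. Position and change were not tested against each other. The word was not found in the 3′ UTR of ZNF395, ZNF775, ZNF839, ZNF142, ZNF330, ZNF398, ZNF76 and ZNF598. The remaining fall, ZNF704, holds it 4 times.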

How the data were processed

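The deposited values are log2 expression per gene and library, in 1 table. Poly(A) selection and a stranded kit are given per the labels' protocols; STAR 2.5.1, R 3.3.0 and the builds hg19 and mm10 are named per the submitters' processing notes, without roles. How reads were counted and scaled is not stated there. In each deposited column, 2 to the power of the log2 value minus 1 fell on whole multiples of a step (100% within 0.01), so the values are log2(CPM + 1) of whole reads. The columns summed to 993401 to 1004330 CPM, so they were not scaled to exactly the same total.

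CPM were computed from these values. Testing was limited to a mean of 1 CPM or more and used limma 3.58.1 in R 4.3.3 (eBayes with trend, two-sided, group as only term), with p-values adjusted by Benjamini-Hochberg over 12865 genes with a threshold of 0.05. On this log2(CPM + 1) scale the changes of low genes are understated. The script was tested on simulated data.

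Members were placed with RefSeq and GENCODE 29 tables; 1 matched through a synonym. Members and lists were chosen with earlier results of these data known. Named were the 12 highest and 12 lowest called changes without overlap whose higher mean reached 2 CPM, the 8 highest levels, up to 4 called and 2 further genes per list, and up to 2 called per run of at least 4 neighbours with at most 3 other coding genes between them. Other members named were chosen after their values were seen. Proteins were translated from GENCODE 29, in place of RefSeq proteins as planned; fingers follow C, 2 to 4 residues, C, 12, H, 3 to 5, H in the longest isoform, and KRAB a HMMER 3.4 profile (E up to 0.001). Each gene's 3′ UTR is that of the transcript with the longest coding sequence. Alternatives were another pseudocount (0.1), filter, scaling, no trend, voom on recovered reads, a replicate block and each library left out.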

Additional observations from a re-analysis of the deposited data

How the results depend on the processing

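Over the 14 alternatives the count of ZNF genes outside chromosome 19 called higher ran from 68 to 88 and of those called lower from 9 to 15; 56 rises and 7 falls were called under the main setting and every alternative that tested them. Leaving out single libraries gave 68 to 77 rises and 9 to 15 falls, and on chromosome 19 as few as 5 falls (up to 8). Of the called genes, 29 lost their call without at least 1 library, 12 to 17 for each. The median log2 change was 0.13 with a pseudocount of 0.1, 0.128 with median centring and 0.139 with voom on recovered reads, and 0.108 to 0.128 with a library left out. Median centring and quantile normalization gave 88 and 87 rises, with 14 falls each. Deviations of same-numbered libraries had a correlation of -0.01 to 0.05, and those of differently numbered ones -0.06 to 0.02. With 3 libraries per group such values cannot decide whether the replicate numbers pair the libraries. With the number as a block, 82 rose and 15 fell. Of 1767 values of single genes under alternatives, 1656 kept their call or lack of one, 103 lost and 8 gained a call. None changed sign where a call was involved, but values without a call could change sign within the 1656. ZNF280B, for example, kept both its sign and its lack of a call under 9 of 14 alternatives. At 1 to 5 CPM 7 of 38 were called, and the part of depth in that count was not tested. Without the variance trend the calls of ZNF143, ZNF207, ZNF213, ZNF334, ZNF346, ZNF385B, ZNF500, ZNF598, ZNF638, ZNF660, ZNF76 and ZNF852 were lost among the ZNF genes named. No test of the difference between gene sets was run.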
